A study of Mus musculus with 26 samples.

Results

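The Rab GTPase genes were taken as every transcript of the deposited expression tables whose gene symbol is Rab followed by a number and at most 1 letter. This gave 43 members among the 10104 transcripts listed for either cell type. Of these, 37 were among the 8530 transcripts listed for oligodendrocyte progenitor cells (OPCs), and all 43 were among the 9751 listed for oligodendrocytes (OLs). The 6 members listed for OLs alone were Rab4a, Rab7b, Rab13, Rab33a, Rab40b and Rab40c. Rab27b was not listed for either cell type, and Rab1 is called Rab1a in these files.

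The study followed the decay of labelled RNA in murine OPCs that had been made from epiblast stem cells of the strain 129S/SvEv, and in OLs differentiated from such OPCs with thyroid hormone T3, noggin, IGF-1, cAMP and NT3. OPCs were kept in medium with N2, B27, bFGF and PDGFA. Both cell types took up the uridine analogue 5-ethynyluridine (5-EU) for 24 h, were then chased with uridine, and were sampled at 0, 1, 2, 4 and 6 h, with 3 OPC and 2 OL replicates at each time. The OLs came from the same cells as some of the OPC replicates, and the study states that some undifferentiated OPCs remain in differentiated cultures, so each OL value is that of a mixed culture. Values are FPKM, that is, fragments per kilobase of transcript relative to the size of the library, of RNA pulled down through the 5-EU label. The study's methods state that the values at each time were scaled to labelled spike-in RNA. In the tables the 0 h values run to 10 significant digits and those at 1, 2, 4 and 6 h to 6, so the 0 h values may be unscaled FPKM, which the methods do not say. They are read here as shares of a library. The tables hold no read counts, so the depth behind each value is unknown and no counting interval can be given.

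The labels were checked against marker lists. Of 10 oligodendrocyte markers, 3 were listed in OPCs with a summed 0 h level of 39.2 to 57.5 FPKM, and 9 were listed in OLs with a sum of 2941 to 6387 FPKM. Mbp, the myelin basic protein gene, was at 1.19 to 3.99 FPKM in OPCs and at 3213 and 1295 FPKM in OLs, and OL replicate 1 held the higher level. All 8 OPC markers were listed in both cell types, with sums of 1548 to 1716 FPKM in OPCs and 1320 to 1522 FPKM in OLs. Of these 8, Gpr17, Sox10, Pdgfra and Lhfpl3 rose at 0 h, Olig1 and Olig2 fell, and Cspg4 and Ptprz1 did not pass the test. Pdgfra, the PDGF receptor of progenitors, was at 11.5 to 26.5 FPKM in OPCs and 66.9 and 43.9 FPKM in OLs, and Olig2, a transcription factor of the whole lineage, at 316.5 to 332 FPKM and 218 and 189.6 FPKM. Of 7 astrocyte markers, 4 were listed in OPCs (sum 419 to 503 FPKM) and 6 in OLs (sum 384.5 to 669 FPKM). Aqp4 was listed in neither, Gfap (6.86 and 8.12 FPKM) and Aldh1l1 in OLs alone, Slc1a2 rose and Slc1a3 fell, and Gja1 was at 40.05 FPKM in OL replicate 1 and 187.5 FPKM in OL replicate 2. Microglial and pluripotency markers were listed in neither cell type. Of 10 neuronal markers, 5 were listed in OPCs (sum 35.2 to 39.1 FPKM) and 6 in OLs (sum 61.7 to 76.9 FPKM), and Snap25, Stmn2 and Rbfox3 were listed in neither.

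Rab proteins are small GTPases that switch between a GTP-bound form on membranes and a GDP-bound form that can be kept soluble. Each is anchored by a lipid placed on it with the help of an escort protein, and each marks 1 or a few membrane compartments, where it recruits the effectors that move, tether and fuse vesicles. In oligodendrocytes, which send large amounts of membrane and myelin proteins to their sheaths, Rab proteins are known for steering proteolipid protein between endosomes and the cell surface.

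The study asked how the codons UUU (phenylalanine) and AAA (lysine) relate to RNA decay, so both residues were located in the nucleotide-binding core that Rab proteins share. The core was found by its residue pattern in the translated reference coding sequences of GENCODE M21 on GRCm38. The phosphate-binding loop was found in 41 of 43 members, the exceptions being Rab40b and Rab40c, and in 567 of all 10104 transcripts (5.61%). Its lysine codon was AAA in 8 members (Rab2a, Rab3a, Rab4a, Rab4b, Rab5a, Rab14, Rab22a and Rab31) and AAG in the other 33. Paralogs of Rab3 and of Rab5 differed here, whereas Rab4a and Rab4b both held AAA. The following coding stretches are written 5′ to 3′ as DNA with the lysine codon in capitals.
Rab3a (chr8:70755940-70755963, plus strand, lysine codon 35): gggaacagcagcgtgggcAAAacc
Rab3d (chr9:21915825-21915848, minus strand, lysine codon 35): gggaacagcagcgtgggcAAGaca
Rab5a (chr17:53483991-53484014, plus strand, lysine codon 33): ggagagtctgctgttggcAAAtca
Rab5b (chr10:128686809-128686832, minus strand, lysine codon 33): ggagagtctgcagtggggAAGtct
Rab5c (chr11:100719976-100719999, minus strand, lysine codon 34): ggcgagtctgccgtgggcAAGtcc
Rab4b (chr7:27176189-27176212, minus strand, lysine codon 21): ggcagtgctggaactggcAAAtca
All 6 stretches lie within 1 coding exon. They are shown because Rab3a, Rab4b and Rab5a had the 3 largest rises at 0 h of all members on log2(FPKM + 1), as described below for each. With a pseudocount of 0.1 FPKM, Rab39b rose slightly more than Rab5a (log2 changes 1.80 and 1.76).

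The second switch, the stretch that moves when GTP is hydrolysed, was found in 37 of 43 members and in 46 of 10104 transcripts (0.455%). It ended in a phenylalanine codon in 28 of them, which was TTC (UUC in the RNA) in 19 members and TTT (UUU) in 9, and in a tyrosine codon in the other 9 members. The stretches of the gene pair Rab1a and Rab1b and of 3 members that are described below for their half-lives are given with the phenylalanine codon in capitals.
Rab1a (chr11:20223084-20223110, plus strand, codon 73): tgggacacagcaggccaggaaagaTTT
Rab1b (chr19:5104710-5104736, minus strand, codon 70): tgggacacagctggtcaggagcggTTC
Rab9 (chrX:166458107-166458133, minus strand, codon 69): tgggacacagctggccaagaacgcTTC
Rab35 (chr5:115640160-115640186, plus strand, codon 70): tgggacacggcagggcaggagcgcTTC
Rab7 (chr6:88005182-88005208, minus strand, codon 70): tgggacacagccggtcaagaacggTTC
Over whole coding sequences, the UUU share of phenylalanine codons had a median of 40.0% in the 43 members against 44.4% in 10048 transcripts, and ran from 0% in Rab43 to 85.7% in Rab11a. The AAA share of lysine codons had a median of 35.3% against 37.5% in 10077 transcripts, and ran from 0% in Rab43 to 83.3% in Rab14. The paralogs Rab11a and Rab11b differed in their UUU share (85.7% and 14.3%), and Rab5a and Rab5c in their AAA share (76.9% and 7.69%). Across the members, Spearman's rho ran from -0.17 to 0.10 between either share and the half-life change (36 genes), the slope difference (37 genes), the slope in OPCs (37 genes) or the slope in OLs (43 genes). These correlations are across genes measured in the same libraries and are given as a description.

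**Figure D1:**
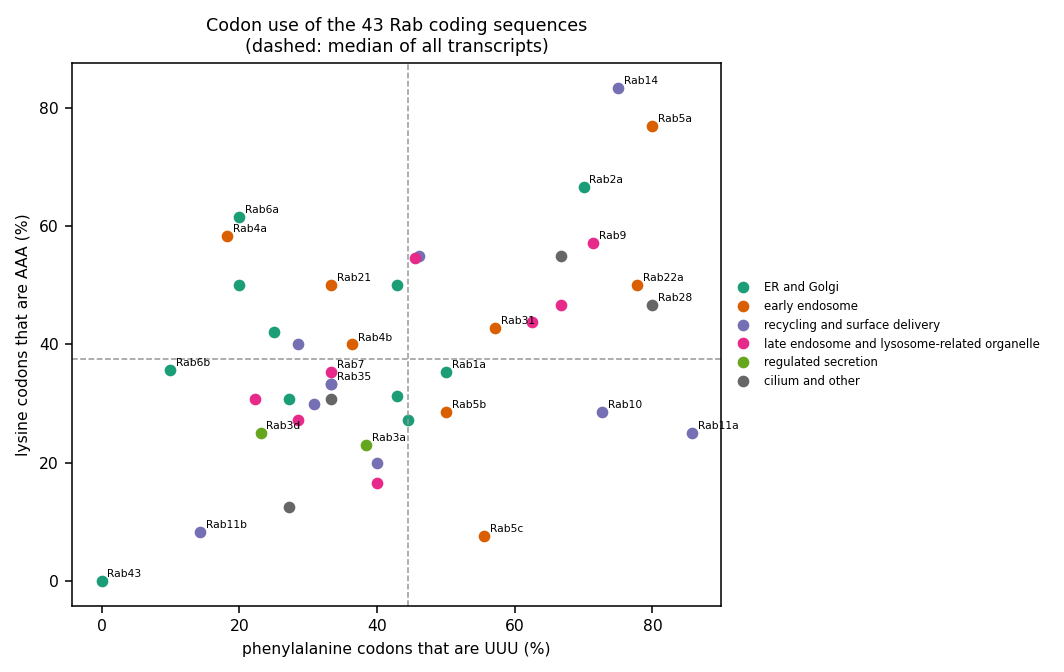
Each point is the coding sequence of 1 of the 43 Rab genes, placed by the share of its phenylalanine codons that are UUU (x axis, percent) and of its lysine codons that are AAA (y axis, percent) and coloured by role, with some points named. Dashed lines mark the medians of all transcripts, 44.4% and 37.5%. Rab14, Rab5a and Rab2a are high in both shares, and Rab43 and Rab11b are low in both.

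The first comparison asked which Rab transcripts were more or less abundant in the labelled RNA of OLs than of OPCs at 0 h. Of the 37 members listed for both cell types, 17 rose, none fell and 20 did not pass the test (limma, Benjamini-Hochberg adjusted p under 0.05 over 8177 transcripts). Over all transcripts tested, 14.1% rose and 17.5% fell. The median log2 change was 0.55 over the 37 members and -0.01 over all transcripts, and the change was above 0 in 29 of 37 members against 49.3% of all transcripts. For 21 of the 37 members both OL replicates lay above all 3 OPC replicates, which held for 28% of all transcripts, and for 4 members both lay below, which held for 31.4%. Summed over the 37 members, the level was 1709, 1487 and 1494 FPKM in OPCs and 2219 and 2137 FPKM in OLs. In mixed cultures a gene that is higher per cell and one that is present in more cells cannot be told apart. At an unadjusted p under 0.05, 21 of the 37 members were called, against 43.5% of all transcripts.

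The count of 17 depended on single libraries. The share of all transcripts called is not given for fits that leave out a replicate. A general loss of calls with fewer libraries can therefore not be told apart from a loss particular to these members. It was 8 without OPC replicate 3, 8 without OL replicate 1 and 10 without OL replicate 2. Rab2a, Rab3a, Rab4b, Rab6a, Rab18, Rab21 and Rab39b passed in every one of the settings they were tested in. The calls of Rab10, Rab11a, Rab12, Rab14, Rab2b, Rab32, Rab33b, Rab3d and Rab6b were lost without OPC replicate 3 (adjusted p 0.0613 to 0.198). The calls of Rab5a, Rab10, Rab11a, Rab12, Rab14, Rab2b, Rab33b, Rab3d and Rab6b were lost without OL replicate 1 (0.0551 to 0.292), and those of Rab12, Rab14, Rab2b, Rab32, Rab33b, Rab3d and Rab6b without OL replicate 2 (0.0622 to 0.191). Without OPC replicate 1 the calls of Rab10 and Rab6b were lost (0.0571 to 0.0671) and Rab8b passed as lower (0.0303), and without OPC replicate 2 that of Rab3d was lost (0.0875).

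**Figure D2:**
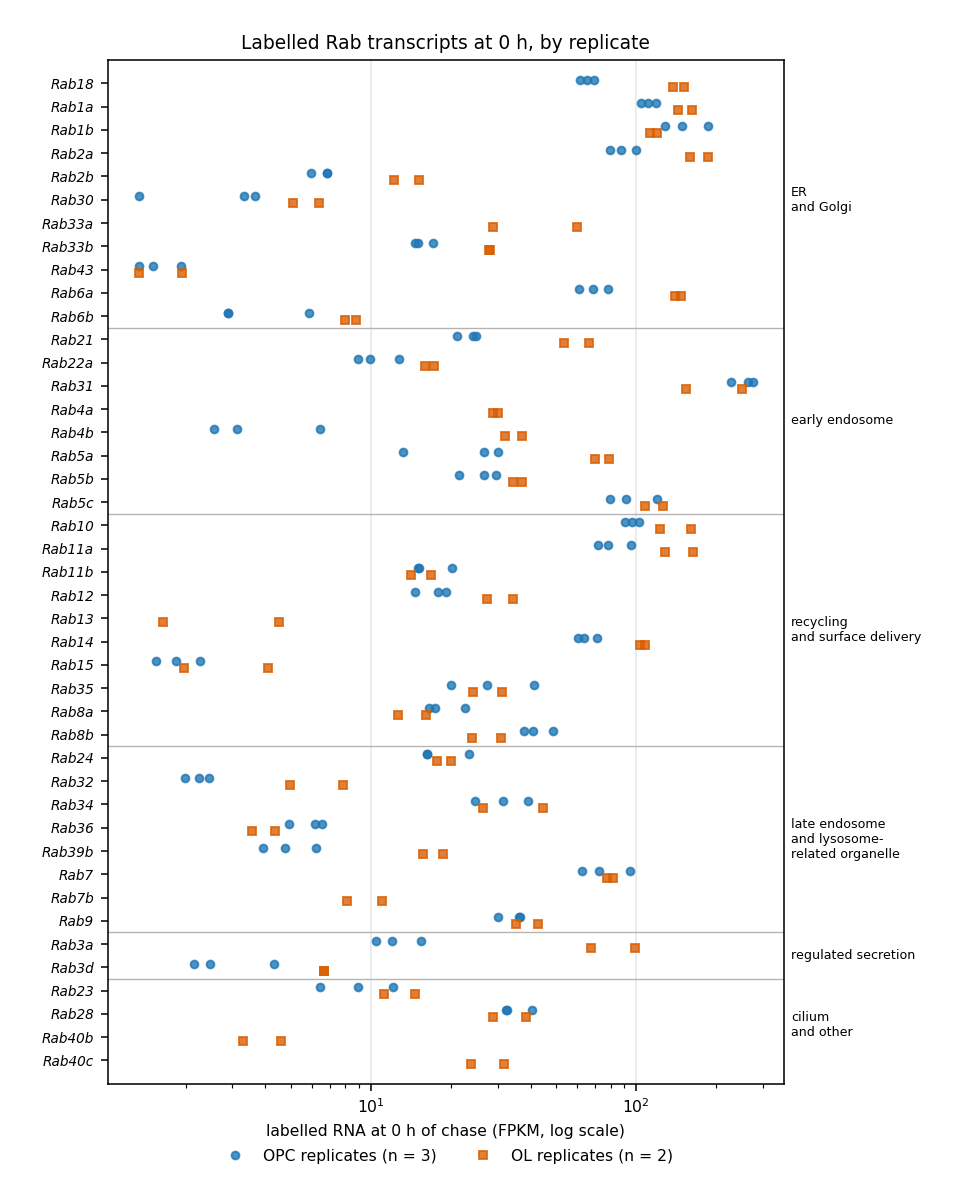
Labelled RNA of each Rab gene at 0 h of chase in FPKM (log x axis), with 1 circle for each of the 3 OPC replicates and 1 square for each of the 2 OL replicates, and genes grouped by role. Both OL squares lie to the right of all OPC circles for 21 of the 37 genes with both, among them Rab3a (10.5 to 15.5 against 67.5 and 99.0 FPKM), and 6 genes are listed for OLs alone.

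Both members tested that act in regulated secretion rose. Rab3a, which acts in the release of synaptic and other regulated vesicles, was at 15.5, 12.1 and 10.5 FPKM in OPCs and at 99.0 and 67.5 FPKM in OLs, with every OL value far above every OPC value. The means were 12.7 ± 2.55 (SD, n = 3) and 83.3 ± 22.3 (SD, n = 2), and the log2 change was 2.62 ± 0.25 (SE, adjusted p 0.0001). The higher OL value was that of the replicate with more Mbp. Its paralog Rab3d, known from secretory granules of exocrine cells, was lower in level, at 4.33, 2.15 and 2.47 FPKM in OPCs and 6.67 and 6.66 FPKM in OLs, and rose by 0.98 ± 0.32 (SE, adjusted p 0.0417). Among neuronal markers, Dcx was at 1.49 to 5.52 FPKM in OPCs and 12.1 and 11.2 FPKM in OLs, Tubb3 at 13.3 to 17.4 FPKM in OPCs and 24.65 and 24.5 FPKM in OLs, and Elavl3 (25.9 and 13.6 FPKM) and Syt1 (3.06 and 1.38 FPKM) were listed for OLs alone. Gap43 was at 9.32 to 10.1 FPKM in OPCs and 7.66 and 5.995 FPKM in OLs, Syp at 4.37 to 5.83 FPKM and 3.54 and 4.96 FPKM, and Elavl4 was listed for OPCs alone. Of the 4 neuronal markers tested, Dcx rose and the other 3 did not pass. Their part in the Rab3a difference was not tested.

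Of the 7 early endosomal members tested, 3 rose. Rab4b, a Rab of fast recycling to the surface, was at 3.14, 6.44 and 2.55 FPKM in OPCs and 37.1 and 32.0 FPKM in OLs, a log2 change of 2.89 ± 0.35 (SE, adjusted p 0.000368) and the largest of the members. In the reference, 1016 of the 1192 bases of its transcript are shared with Gm21983 on the same strand, so its reads could belong to either gene. Rab5a, which drives fusion of early endosomes, was at 13.2, 30.1 and 26.7 FPKM in OPCs and 78.9 and 70.1 FPKM in OLs and rose by 1.71 ± 0.32 (SE, adjusted p 0.00368). Its OPC replicate 1 was the lowest, and all OPC values lay well below the OL values. Of the 2366 bases of the Rab5a transcript, 221 lie opposite exons of Pp2d1. Rab21, which carries integrins through endosomes, was at 24.97, 21.2 and 24.2 FPKM in OPCs and 53.2 and 66.1 FPKM in OLs (log2 change 1.31 ± 0.20, SE, adjusted p 0.00141).

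The other Rab5 genes differed less. Rab5b was at 21.5 to 29.7 FPKM in OPCs and 34.4 and 37.0 FPKM in OLs (adjusted p 0.135), and Rab5c at 79.6 to 119 and 126 and 108 FPKM (adjusted p 0.324), so the Rab5c groups overlapped. Rab22a, an endosomal relative of Rab5, was at 8.97 to 12.8 and 16.0 and 17.3 FPKM without passing the test (adjusted p 0.1003). Rab31, which works between the Golgi and endosomes, had the highest mean level of all members in both cell types, at 276, 228 and 263 FPKM in OPCs and 154 and 249.8 FPKM in OLs. Its groups overlapped, since OL replicate 2 lay within the OPC range, and the log2 change was -0.38 ± 0.23 (SE, adjusted p 0.238). Rab31 was also the member with the widest gap between the OL replicates in FPKM. Rab4a was listed for OLs alone, at 30.2 and 28.9 FPKM.

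Of the 10 members tested that act between the endoplasmic reticulum (ER) and the Golgi apparatus, 6 rose. Rab18, known from the ER and lipid droplets, was at 65.5, 69.1 and 61.1 FPKM in OPCs and 152 and 138 FPKM in OLs (log2 change 1.14 ± 0.17, SE, adjusted p 0.00115). Rab6a, a Golgi Rab, was at 77.9, 68.5 and 60.8 FPKM in OPCs and 140.1 and 148 FPKM in OLs (1.05 ± 0.18, adjusted p 0.00234). Rab2a, which acts between ER and Golgi, was at 99.5, 87.6 and 79.5 FPKM in OPCs and 187 and 159 FPKM in OLs (0.95 ± 0.18, adjusted p 0.00422). The OL means of these 3 abundant genes were 2.22, 2.08 and 1.945 times the OPC means, with no overlap of the groups.

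The less abundant ER and Golgi members that rose were Rab2b, Rab6b and Rab33b. Rab2b went from 6.84, 5.96 and 6.85 FPKM to 15.2 and 12.2 FPKM, Rab6b from 2.89, 5.82 and 2.88 FPKM to 8.75 and 7.99 FPKM, and Rab33b, which also acts in autophagy, from 17.1, 14.7 and 14.98 FPKM to 27.9 and 28.0 FPKM. Their log2 changes were 0.95 (adjusted p 0.0251), 1.00 (0.0467) and 0.81 (0.0218), and none of their groups overlapped. The call of Rab6b was also lost with a pseudocount of 0.1 FPKM (adjusted p 0.0538). Of the 2906 bases of the Rab2b transcript, 2254 lie opposite exons of other genes, Tox4 among them, as do 615 of 3492 bases of Rab33b and 708 of 3214 bases of Rab6a, and the study's commands set no strand option for alignment or counting, so reads of such overlapping genes could not be told apart by strand. Rab1b, the second most abundant member in OPCs, was the exception in direction at 186, 128 and 148 FPKM in OPCs and 120.0 and 113 FPKM in OLs (log2 change -0.39 ± 0.20, SE, adjusted p 0.163), while Rab1a was at 104 to 118 FPKM and 163 and 144 FPKM (0.46 ± 0.17, adjusted p 0.0653). Both drive the first step from the ER to the Golgi. Rab30 (adjusted p 0.0842) and Rab43 (0.968) did not pass, and Rab33a was listed for OLs alone at 59.5 and 28.8 FPKM.

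Of the 9 recycling and surface-delivery members tested, 4 rose. Rab11a, the Rab of the recycling endosome, was at 95.5, 78.6 and 71.6 FPKM in OPCs and 164 and 128 FPKM in OLs (log2 change 0.83 ± 0.20, SE, adjusted p 0.0126). Its paralog Rab11b was at 15.2, 15.1 and 20.2 FPKM and 14.1 and 16.8 FPKM, with overlapping groups (-0.11 ± 0.25, adjusted p 0.777). A pseudogene named after Rab11b is annotated, as for Rab5a and Rab7. Rab14, which carries cargo between the Golgi and endosomes, went from 71.1, 63.5 and 60.5 FPKM to 108 and 103 FPKM (0.69 ± 0.17, adjusted p 0.014), and Rab12 from 19.1, 14.6 and 17.8 FPKM to 27.3 and 34.5 FPKM (0.81 ± 0.23, adjusted p 0.0276). Rab10, which brings vesicles to the plasma membrane, was at 96.1, 103 and 90.4 FPKM and 161 and 123 FPKM, just inside the threshold (0.55 ± 0.18, adjusted p 0.0493), and did not pass with a pseudocount of 0.1 FPKM (0.0503) or with the libraries scaled to the same median (0.101).

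The Rab8 pair, which acts in delivery to the surface and the cilium, lay on the other side. Rab8b was at 37.8, 48.6 and 41.0 FPKM in OPCs and 24.0 and 31.0 FPKM in OLs, the lowest log2 change of the members (-0.61 ± 0.21, SE, adjusted p 0.0527), and it passed as lower once libraries were scaled to the same median (adjusted p 0.045). Rab8a was at 22.7, 17.5 and 16.6 FPKM and 16.1 and 12.7 FPKM (-0.37 ± 0.25, adjusted p 0.296). Rab35, which returns proteins from endosomes to the surface and is known in oligodendrocytes for its part in proteolipid protein traffic, was at 41.3, 27.5 and 20.1 FPKM in OPCs and 24.3 and 31.3 FPKM in OLs, with overlapping groups (-0.04 ± 0.30, adjusted p 0.935), and its change was 0.22 without OPC replicate 1 and 0.13 without OL replicate 1. Rab15 was at 1.55 to 2.26 FPKM and 4.08 and 1.98 FPKM (adjusted p 0.319), and Rab13 was listed for OLs alone at 4.51 and 1.65 FPKM.

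Of the 7 late endosomal and lysosome-related members tested, 2 rose, both of low level in OPCs. Rab39b was at 3.91, 6.18 and 4.73 FPKM in OPCs and 15.7 and 18.8 FPKM in OLs (log2 change 1.63 ± 0.29, SE, adjusted p 0.00299). Of its 3401 transcript bases, 634 lie opposite exons of Gm15063, so reads of that gene could not be told apart by strand. Rab32, known from melanosomes and other lysosome-related organelles, was at 1.99, 2.45 and 2.24 FPKM and 4.96 and 7.87 FPKM (1.17 ± 0.30, adjusted p 0.0158). Rab7, the Rab of late endosomes and lysosomes, was at 94.8, 62.4 and 72.7 FPKM in OPCs and 77.5 and 81.6 FPKM in OLs, so that both OL values lay inside the OPC range (0.08 ± 0.21, adjusted p 0.809). Rab36 had the second lowest change, at 6.17, 6.54 and 4.91 FPKM against 3.57 and 4.33 FPKM, and did not pass (-0.47 ± 0.28, adjusted p 0.233). Rab9, Rab24 and Rab34 had overlapping groups, and Rab7b was listed for OLs alone (10.97 and 8.11 FPKM). Of the 4 members grouped under cilium and other roles, Rab23 and Rab28 did not pass, and Rab40b (3.29 and 4.57 FPKM) and Rab40c (23.8 and 31.7 FPKM) were listed for OLs alone. With the 10 members left out that share more than 5% of their transcript bases with exons of other genes, 11 of 27 members rose. No such filter was applied to all transcripts, of which 14.1% rose unfiltered.

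**Figure D3:**
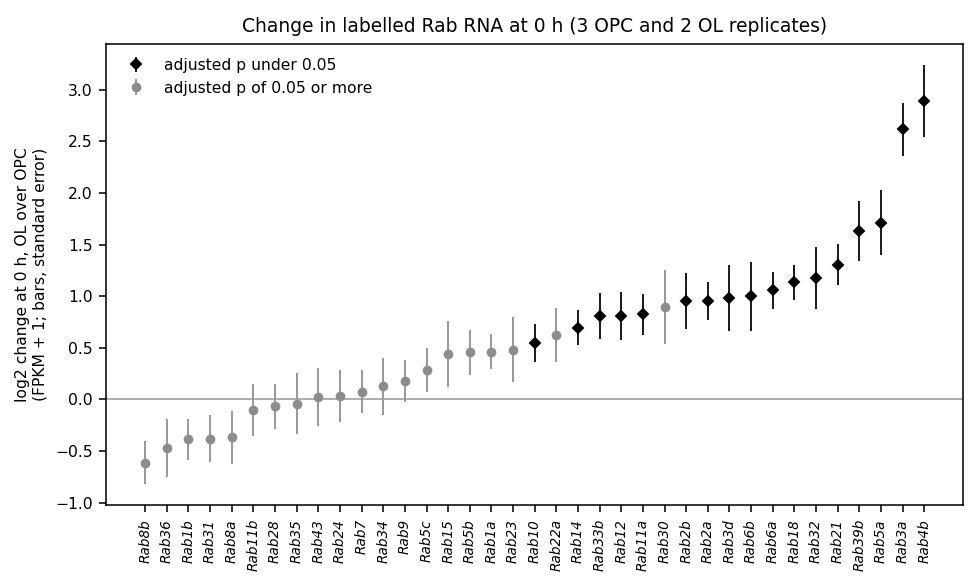
Log2 change of labelled RNA at 0 h, OL over OPC, on FPKM + 1, for the 37 Rab genes listed in both cell types, in order of size. Bars are standard errors of the limma fit over 3 OPC and 2 OL replicates, and black diamonds mark the 17 genes with an adjusted p under 0.05, all of them above 0, from Rab10 (0.55) to Rab4b (2.89).

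The second comparison asked whether labelled Rab RNA decayed more slowly in OLs. The authors fitted an exponential decay to each transcript in each replicate and capped half-lives at 6 h, the last time sampled. Half-lives were given for 36 members in OPCs and 42 in OLs, as Rab4b had none in OPCs and Rab13 none in either cell type. Over the 36 members with all 5 values, half-lives had a median of 3.11, 2.57 and 3.84 h in OPCs and of 6 h, the ceiling, in both OL cultures. Over all 8112 such transcripts it was 2.35, 2.08 and 2.83 h in OPCs and 4.54 and 4.44 h in OLs. Thus the difference of the members' medians, 2.83 h, stood beside one of 2.07 h for all transcripts. It was 0.0983 h once each replicate was centred on its own median over all transcripts. That centring was done on the log2 scale, so it divides by the median and does not subtract it. Both OL medians of the members were at the ceiling, which bounds the centred value. The difference was 1.09 h with half-lives refitted without the 6 h libraries and -0.427 h with half-lives rescaled to a common mean decay curve. No p-value is given for a median over members, and with 3 against 2 replicates an exact test cannot go below 0.1.

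Gene by gene, 0 of 36 members and 0 of all 8112 transcripts (0%) passed the half-life test (limma with a variance trend). At an unadjusted p under 0.05, 5 of 36 members and 23.4% of all transcripts were called. Limma without the trend called 1 member, Rab9, among 275 transcripts higher (3.39%) and 12 lower (0.148%), and a fit to the transcripts below the ceiling in all 5 replicates called 1 of 12 members, Rab35 (adjusted p 0.0368), as higher and none lower, beside 11.8% and 0.163% of 3692 transcripts. After centring each replicate on its median, 12 members were lower and none higher (32.4% and 0.925% of all transcripts), among them all 7 members at the ceiling in every replicate. With half-lives rescaled to the mean decay curve, Rab1a and Rab2a passed as lower in OLs and none as higher (adjusted p 0.0164 to 0.0496). The share of all transcripts in that setting is not given. For 10 of 36 members both OL half-lives lay above all 3 OPC half-lives, against 35.9% of all transcripts, and for no member did both lie below (2.01%).

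Rab3a, Rab9 and Rab24 had the largest changes as deposited, all of them cut by the ceiling, so that their order was not measured. Rab3a was at 1.19, 1.96 and 1.65 h in OPCs and 6 and 5.47 h in OLs, a log2 change of 1.87 ± 0.29 (SE, adjusted p 0.0973, 0.0614 to 0.437 over the alternatives). Rab9, which returns receptors from late endosomes to the Golgi, was at 1.92, 1.96 and 2.17 h in OPCs and at 6 h in each OL culture, a change of 1.57 ± 0.24 (SE, adjusted p 0.0973). Its adjusted p ran from 0.0117 to 0.5 over the alternatives. Rab24, known from autophagy, was at 1.08, 3.65 and 3.71 h and 6 and 6 h (1.29 ± 0.70, adjusted p 0.387). Of its 1168 transcript bases, 775 lie opposite exons of Prelid1. Rab35 was at 1.23, 1.96 and 2.71 h in OPCs and 4.00 and 5.16 h in OLs (1.28 ± 0.42, adjusted p 0.185). The groups did not overlap for these 4 members.

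The lowest changes were close to 0. Rab39b was at 1.96, 1.88 and 3.85 h in OPCs and 2.02 and 2.21 h in OLs (-0.20 ± 0.39, SE), and Rab30 at 3.59, 1.83 and 2.75 h and 2.27 and 2.64 h (-0.10 ± 0.35, SE), both with overlapping groups. The Rab39b change was 0.14 without OPC replicate 3, and that of Rab30 was 0.12 without OPC replicate 1 and 0.00485 without OL replicate 1. Rab8a, at 2.18, 3.28 and 6 h in OPCs and 4.68 and 3.89 h in OLs, also had overlapping groups (0.29 ± 0.52, SE), as did Rab11b at 4.51, 6 and 4.06 h and 6 and 4.58 h (0.13 ± 0.23, SE).

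For 7 members no change could be seen because they were at the ceiling in all 5 replicates, namely Rab1b, Rab5c, Rab6a, Rab7, Rab11a, Rab18 and Rab31, which is 19.4% of the 36 against 16.1% of all transcripts. These were also the 7 at the ceiling in every OPC culture, beside 17.4% of all transcripts. In OLs alone, 19 of 42 members (45.2%) were at the ceiling in both replicates, against 28.9% of all transcripts. Rab5a was at 6, 3.23 and 6 h in OPCs and at the ceiling in both OL replicates (0.30 ± 0.33, SE), and Rab10 at 6, 4.16 and 6 h and likewise (0.18 ± 0.20, SE). The deposited half-lives also share values. A fit by least absolute deviations settles at 1.957 h when the 1 h and 2 h points lie above the curve and the 4 h and 6 h points below it, whatever their values. In OPC replicate 2 this value, within 0.001 h, was held by 2174 of 8491 transcripts (25.6%) and by 10 of 36 members (Rab3a, Rab8b, Rab9, Rab15, Rab22a, Rab28, Rab32, Rab34, Rab35 and Rab43), and in the other replicates by at most 1 member each. Equal half-lives in that replicate therefore do not mean equal curves.

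**Figure D4:**
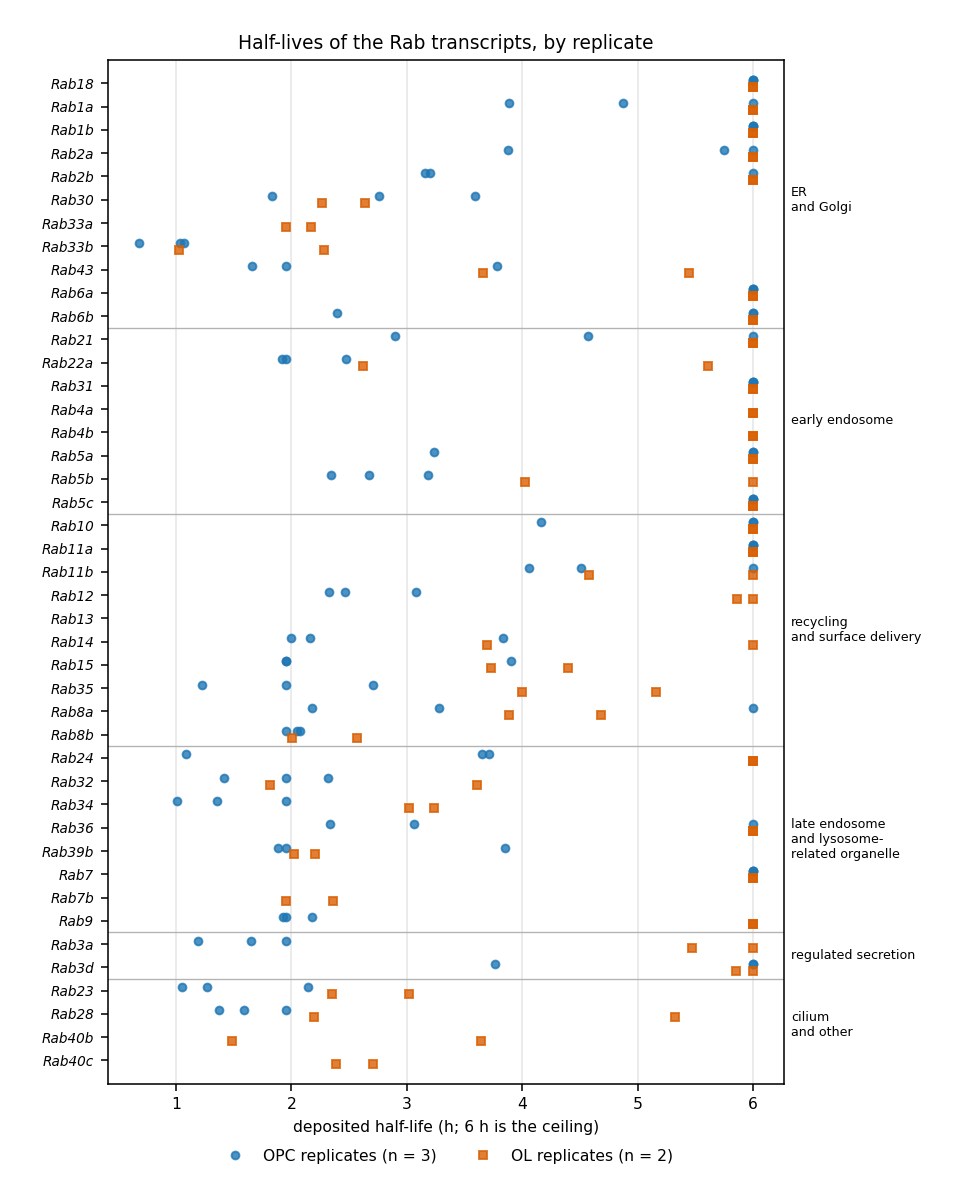
Deposited half-lives in hours (x axis, ceiling 6 h) of the Rab genes, with 1 circle for each of the 3 OPC replicates and 1 square for each of the 2 OL replicates, and genes grouped by role. All points of 7 genes, such as Rab7 and Rab31, sit at 6 h, whereas Rab3a and Rab9 lie at 1.19 to 2.17 h in OPCs and at 5.47 to 6 h in OLs.

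Decline over the chase was also measured as the slope of log2(FPKM + 1) per hour, which has no ceiling. The libraries of 1 replicate at different times belong to 1 culture series, and this test takes its error from the spread of the libraries around the line of their replicate, so its p-values do not measure the spread between cultures. A test with 1 slope per culture, chosen after seeing the data, is given beside it. In OPCs, 32 of 37 members fell over the chase and 1 rose, against 81.9% and 5.06% of 8530 transcripts, with a median slope of -0.27 against -0.38 per h. In OLs, 24 of 43 members fell and 2 rose, against 68.9% and 1.98% of 9751 transcripts, with a median of -0.14 against -0.20 per h. The risers were Rab31 in OPCs (0.07 per h, adjusted p 0.0334) and Rab5c and Rab7 in OLs (0.10 per h each, adjusted p 0.0359 and 0.0259). These calls rest on the spike-in scale. With each library scaled to its 0 h median instead, 15 members rose and 7 fell in OPCs (33.9% and 25.2% of all transcripts), and 22 rose and 7 fell in OLs (30.9% and 19.3%). This scaling gives every library the median level of its 0 h library, so it removes the general decline by construction. A rise or fall in that setting is therefore relative to the library median. Without the 6 h libraries, 17 members were called in OLs, all of them falling, and the share of all transcripts in that fit is not given. In OPCs Rab31 and Rab5c rose without replicate 1 or with a pseudocount of 0.1 FPKM, and Rab31, Rab4b and Rab5c without the 6 h libraries. No member rose in OPCs without replicate 2 or 3, or in OLs without either replicate. With 1 slope per culture 33 members fell in OPCs and 24 in OLs (82.3% and 70.6% of all transcripts), and none rose in either (5.7% and 0.0513%).

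For Rab31, labelled RNA at 6 h was 76.7%, 147% and 146% of its own 0 h level in OPCs and 119% and 94.8% in OLs. For Rab7 it was 69.1%, 104% and 123% in OPCs and 129.6% and 149.8% in OLs, and for Rab5c 89.98%, 122% and 136% and 142% and 122%. In each of these 3 abundant genes OPC replicate 1 was the lowest library. Values above 100% are relative to the spike-ins and to the 0 h library, and labelled RNA of 1 gene was not measured apart from that scale.

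The slope was tested for a difference between the cell types. Of 37 members, 13 declined more slowly in OLs and none faster (limma, adjusted p under 0.05), against 31.5% and 0.404% of 8177 transcripts, so the members' share of 35.1% was near that of all transcripts. The median difference was 0.13 per h over the members and 0.14 per h over all transcripts. With the libraries scaled to their 0 h medians the split was 5 slower and 7 faster in OLs, against 10.2% and 24% of all transcripts. Slower and faster are there relative to the library medians of each cell type, whose own decline has been removed. With 1 slope per culture 10 declined more slowly and none faster (22.5% and 0.269% of all transcripts). The calls of Rab2a, Rab5b, Rab12 and Rab14 were then lost (adjusted p 0.0508 to 0.143) and Rab4b gained one. The count of 13 was 4 without OL replicate 2, 8 without OL replicate 1 and 5 without the 6 h libraries. Without OL replicate 2 the calls of Rab2a, Rab2b, Rab5b, Rab6a, Rab9, Rab12, Rab14, Rab28 and Rab35 were lost (adjusted p 0.063 to 0.176), and without OL replicate 1 those of Rab2a, Rab2b, Rab5b, Rab6a and Rab12 (0.0721 to 0.166). Those of Rab2a, Rab2b and Rab6a were lost without OPC replicate 1 (0.0528 to 0.0829) and those of Rab2a and Rab6a without OPC replicate 2 (0.0566 to 0.145), and Rab4b, Rab10 and Rab36 gained a call without OPC replicate 3 (0.0228 to 0.0498). With a pseudocount of 0.1 FPKM, Rab15, Rab22a, Rab23 and Rab32 gained one (0.00867 to 0.035). Without the 6 h libraries the calls of Rab2a, Rab2b, Rab5b, Rab6a, Rab12, Rab14, Rab21 and Rab24 were lost (0.0807 to 0.778). The share of all transcripts called is not given for fits without a replicate or without the 6 h libraries. Scaled to the 0 h medians, Rab10, Rab1b, Rab31, Rab7, Rab18, Rab5c and Rab1a were called as declining faster in OLs relative to the library medians.

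Rab3a had the largest slope difference. Its labelled RNA at 6 h was listed at 0 in all 3 OPC cultures and was 70.2% and 46.75% of its 0 h level in OLs. At 4 h OPCs kept 6.15%, 10.7% and 18.65% and OLs 102% and 62.3%. The slope difference was 0.54 ± 0.07 per h (SE, adjusted p 2.28e-05) and 1.04 with a pseudocount of 0.1 FPKM. Rab3a and Rab34 passed in all of the 12 settings tried, including the one scaled to the 0 h medians and that with 1 slope per culture (adjusted p 0.002 and 0.00764). Both had OPC values listed at 0 at 6 h, which the scaling leaves at 0 while it raises the other values of those libraries.

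Rab34, which places lysosomes and acts in ciliogenesis, kept 1.88%, 0% and 0% at 6 h in OPCs and 9.95% and 25.2% in OLs (slope difference 0.44 ± 0.09 per h, adjusted p 0.000854, and 0.79 with the pseudocount of 0.1 FPKM). Rab24 kept 1.62%, 0% and 17.2% against 67.9% and 64.7% (0.49 ± 0.11 per h, adjusted p 0.00199), a difference of 0.23 (adjusted p 0.199) without the 6 h libraries. Rab21 kept 6.55%, 9.75% and 10.8% against 64.2% and 77.9% (0.41 ± 0.09 per h, adjusted p 0.00125), a difference of 0.17 (adjusted p 0.178) without the 6 h libraries and 0.22 (adjusted p 0.09995) after scaling to the 0 h medians. In Rab21 the cell types parted late, since at 2 h OPCs still kept 95.96%, 93.3% and 125% and OLs 88.5% and 84.2%.

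Rab9 kept 23.1%, 7.29% and 14.8% at 6 h in OPCs and 38.4% and 74.7% in OLs (0.35 ± 0.08 per h, adjusted p 0.00223). Rab35 kept 7.34%, 4.72% and 9.08% against 20.8% and 44.7% (0.33 ± 0.08 per h, adjusted p 0.00269). Rab28, known from cilia, kept 14.8%, 0% and 1.52% against 15.02% and 45.8% (0.41 ± 0.11 per h, adjusted p 0.00559). After scaling to the 0 h medians none of these 3 passed, with differences of 0.13 (adjusted p 0.243), 0.13 (0.0992) and 0.36 per h (0.0675). OL replicate 2 kept more than OL replicate 1 in each of these 3 genes, and for Rab28 the lower OL value lay just above the highest OPC value. The Rab28 slopes were -0.38, -0.95 and -0.74 per h in OPCs and -0.37 and -0.19 per h in OLs, so those of OPC replicate 1 and OL replicate 1 were close.

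Rab14 kept 13.1%, 8.80% and 23.4% at 6 h in OPCs and 29.5% and 52.9% in OLs, Rab12 10.7%, 12.8% and 16.2% against 45.4% and 61.9%, and Rab5b 16.6%, 8.42% and 21.1% against 33.5% and 50.1%. Their slope differences were 0.27 (adjusted p 0.0037), 0.24 (0.011) and 0.24 per h (0.0115). Rab6a kept 16.3%, 32.4% and 55.4% against 74.3% and 110.0%, Rab2b 13.1%, 54.3% and 27.3% against 98.6% and 96.5%, and Rab2a 32.2%, 27.1% and 47.5% against 57.2% and 76.7% (0.24, 0.24 and 0.16 per h, adjusted p 0.0186, 0.0219 and 0.0344). After scaling to the 0 h medians none of these 6 passed. The differences of Rab14, Rab12, Rab5b and Rab2b were then 0.025 (adjusted p 0.723), 0.0431 (0.603), 0.0164 (0.865) and 0.0552 per h (0.673), and those of Rab2a (-0.10) and Rab6a (-0.0143) turned sign. All OL values at 6 h lay above all OPC values for these 6 genes. This separation at 6 h held for 23 of 37 members against 48.9% of all transcripts, and the reverse for none against 2.86%. At 6 h, 5 to 9 members were listed at 0 in each OPC library and none in either OL library, beside 15.7% to 21.6% and 0.79% to 4.08% of all transcripts.

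Rab8b declined in both cell types (slopes -0.54 and -0.41 per h), keeping 13.4%, 9.68% and 12.8% at 6 h in OPCs and 14.7% and 16.1% in OLs (slope difference 0.12 ± 0.08 per h, adjusted p 0.208). Rab5a kept 82.0%, 27.6% and 60.0% in OPCs and 53.1% and 98.6% in OLs (0.13 ± 0.08 per h, adjusted p 0.216), so its rise at 0 h was not accompanied by a called difference in decline. The Rab5a groups overlapped, and OPC replicate 1 went from 168% at 1 h to 70.8% at 2 h. Rab11a and Rab10, which rose at 0 h, also had no called slope difference (0.09 and 0.14 per h, adjusted p 0.267 and 0.0683), and after scaling to the 0 h medians these differences and that of Rab5a were below 0 (-0.17, -0.12 and -0.12). Of the 17 members that rose at 0 h, Rab2a, Rab2b, Rab3a, Rab6a, Rab12, Rab14 and Rab21 were among the 13 called for slope, and both tests share the 0 h libraries.

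**Figure D5:**
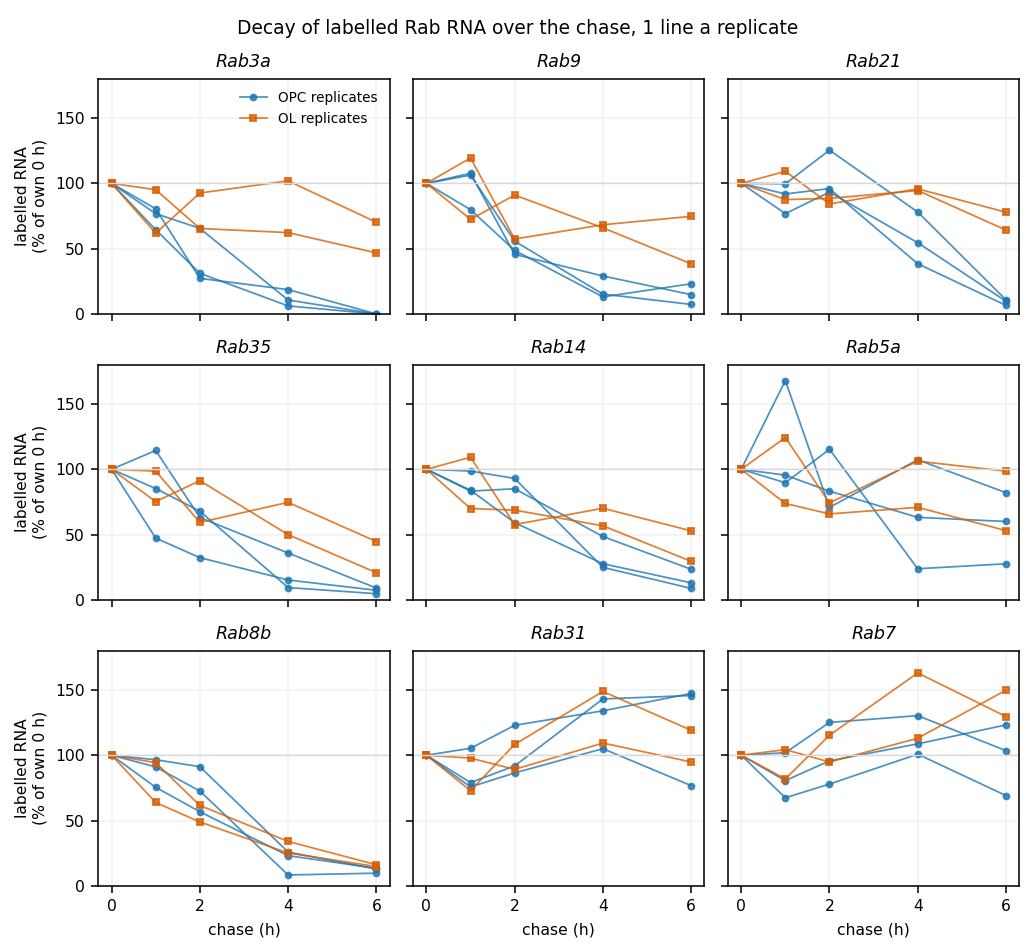
Labelled RNA of 9 Rab genes at 0, 1, 2, 4 and 6 h of chase (x axis), in percent of each replicate's own 0 h level (y axis), with 1 line for each OPC replicate (circles) and OL replicate (squares). Rab3a reached 0% in all OPC replicates and 46.8% and 70.2% in OLs at 6 h, Rab8b fell to 9.68% to 16.1% in all 5, and Rab31 and Rab7 stayed near or above their 0 h level in most.

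The genes that act on Rab proteins were counted from lists. As above, 14.1% of all transcripts rose and 17.5% fell at 0 h, 31.5% declined more slowly and 0.404% faster in OLs, and 10.2% were slower and 24% faster after scaling to the 0 h medians. Of 8 tested genes for prenylation, escort and retrieval, 4 rose at 0 h and none fell. Fnta, the alpha subunit of farnesyltransferase and of a related lipid transferase, rose by 2.07 (adjusted p 0.000239), and Chml, a Rab escort protein, by 1.53 (0.0159), and Chm, the other escort protein, and Pggt1b were the remaining ones. Fnta and Pggt1b belong to enzymes that act on other GTPases as well. In the slope test, 3 of the 8 declined more slowly in OLs, led by Rabggtb, the beta subunit of the transferase that lipidates Rab proteins (0.53 per h, adjusted p 0.0137), and after scaling to the 0 h medians none was slower and 3 were faster.

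Of 33 exchange factors, which load Rab proteins with GTP, 3 rose and 3 fell at 0 h. Dennd4a rose by 2.09 (adjusted p 0.00189) and Rab3gap1 by 1.14 (0.0337), while Dennd2a fell by 1.56 (0.000253) and Trappc4 by 1.31 (0.00116). Rab3gap1 and Rab3gap2 were counted on this list, although they are named for switching Rab3 off as GTPase-activating proteins. In the slope test 15 declined more slowly and none faster in OLs, led by Rab3gap2 (0.45 per h, adjusted p 0.00486) and Trappc10 (0.40 per h, 0.00103), and 8 slower and 3 faster after scaling to the 0 h medians. Of 26 GTPase-activating proteins, which switch Rab proteins off, 9 rose and 2 fell at 0 h. Tbc1d23 rose by 2.01 (0.000539) and Tbc1d10a, a GTPase-activating protein for Rab27 and Rab35, by 1.92 (0.00497), and Tbc1d1 fell by 1.80 (0.000919) and Tbc1d4 by 1.15 (0.0337), a pair that acts on Rab proteins of glucose transporter vesicles. In the slope test 13 of the 26 declined more slowly, led by Tbc1d10a (0.44 per h, 0.00086) and Tbc1d1 (0.40 per h, 0.000966), and 4 slower and 2 faster after scaling.

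Of 27 effectors tested, 8 rose and 1 fell at 0 h. Osbpl1a, a sterol-binding effector of Rab7, rose by 2.75 (adjusted p 0.000275) and Golga5, a Golgi coiled-coil protein, by 1.40 (0.00745), while Rims3, of the family of presynaptic Rab3 partners, fell by 2.78 (0.000272). In the slope test 7 declined more slowly, led by Inpp5b (0.37 per h, 0.00866) and Appl2 (0.36 per h, 0.0024), and 5 slower and 1 faster after scaling. With 1 slope per culture, 2 of the 8 genes for prenylation, escort and retrieval, 10 of the 33 exchange factors, 6 of the 26 GTPase-activating proteins and 5 of the 27 effectors declined more slowly in OLs and none faster, beside 22.5% and 0.269% of all transcripts. The half-life test called none of the 8, 33, 26 or 27 genes of these lists, and limma without the trend called Dennd2a, Rab3gap2 and Tbc1d5.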

How the data were processed

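Labelled RNA of 15 OPC and 10 OL libraries was analysed. An OPC control made without biotin was not analysed here, so unlabelled background was not subtracted. Per the study's methods, the authors clipped adapters, aligned reads to GRCm38 with HISAT2 2.1.0, and tabulated FPKM with StringTie 1.3.5 and ballgown over canonical coding transcripts of GENCODE vM9. The deposited FPKM values of each time were, per the methods, scaled by the authors to labelled LYSa and luciferase spike-ins, although the 0 h columns are written with more digits than the rest, as unscaled values might be. Transcripts below 1 FPKM at 0 h had been removed by the authors, with a further filter on values of 0 at 1 and 2 h. The other deposited unit is half-life in hours, fitted per replicate by the authors by least absolute deviations and capped, and values just above the ceiling were set to 6 h here. A refit returned 98.5% to 99.9% of deposited half-lives within 0.01 h.

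Members and lists were chosen with earlier results of these data known. Tests used limma 3.58.1 (R 4.3.3, with a variance trend) on log2(FPKM + 1) or log2 half-life, with Benjamini-Hochberg adjustment over all transcripts and a threshold of 0.05. Fold changes on log2(FPKM + 1) understate those of low genes. Slopes were fitted with an intercept for each replicate, and a slope difference is the interaction of cell type and time. The fits were tested on simulated data. Alternatives were a pseudocount of 0.1 FPKM, a minimum of 5 FPKM at 0 h, other scalings, a fit without 6 h, the replicate block, 1 slope per culture and leaving out each replicate. Full values were given for called members, the 3 highest and 3 lowest half-life and 0 h changes, and a list of standard Rab genes, and for other lists the 2 called genes with the largest change each way. The study calls the replicates biological. P-values at 0 h and for half-lives measure the spread between them, and those of slopes the spread of libraries around each replicate's line. Positions, overlaps and coding sequences came from GENCODE M21 on GRCm38, a later annotation than that of the tables.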

Additional observations from a re-analysis of the deposited data

Results flagged for a closer look

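The decline of labelled RNA over the chase differed between OPCs and OLs for 13 members by the test of the difference itself, on a background of 31.5% of all transcripts. The slope in OLs minus that in OPCs, in log2 units per h, was 0.54 for Rab3a, 0.49 for Rab24, 0.44 for Rab34, 0.41 for Rab21, 0.41 for Rab28, 0.35 for Rab9 and 0.33 for Rab35. It was 0.27 for Rab14, 0.24 for Rab12, 0.24 for Rab6a, 0.24 for Rab5b, 0.24 for Rab2b and 0.16 for Rab2a. After scaling to the 0 h medians, Rab3a, Rab24 and Rab34 still passed as slower in OLs, together with Rab15 and Rab32, which had not passed before. Each of these slower members was listed at 0 in some OPC library at 6 h, a value that no scaling can raise. Rab15 and Rab32 were also at only 1.55 to 2.45 FPKM in OPCs at 0 h. Rab10, Rab1b, Rab31, Rab7, Rab18, Rab5c and Rab1a passed as faster, relative to the library medians. Groups of 2 or 3 replicates are too small for a test of single outlying samples.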

How the results depend on the processing

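Of 66 alternative values of the counts and medians, 47 stayed within 1.5 times or within the replicate spread with no turn in direction. Of 219 alternative values for single members at 0 h, 173 kept their side of the threshold, 38 lost a call, 2 gained one and 6 turned sign, and the corresponding numbers were 142, 0, 8 and 16 of 166 for half-lives and 168, 39, 2 and 11 of 220 for slope differences. Among the sign turns, 2 half-life changes gained a call (Rab10 and Rab11b, centred), and 2 slope differences lost one (Rab2a and Rab6a) and 2 gained one (Rab7 and Rab10) after scaling to the 0 h medians. The causes were not tested. The members called at 0 h were 8 to 16 when each replicate was left out, 11 without members that share exons, a setting chosen after seeing the data, and 11 with the replicate block. For half-lives 12 were called after centring, all of them lower, and the 7 at the ceiling in every replicate were fixed by it. After rescaling to the mean curve 2 were called, Rab1a and Rab2a, both lower. Without the limma trend 1 was called and below the ceiling 1, both higher, these 2 settings being chosen after seeing the data. Scaling to the 0 h medians turned the main direction of the calls, with 22 in OPCs (15 up, 7 down), 29 in OLs (22 up, 7 down) and 12 for the slope difference (5 up, 7 down). This scaling removes the general decline by construction, so its calls are relative to the library median. The slope count in OLs was 17 without the 6 h libraries, and the slope difference count was 5 without them and 4 to 16 when each replicate was left out. The median half-life difference was 0.0983 h after centring on the log2 scale, 1.09 h without the 6 h libraries and -0.427 h after rescaling to the mean curve. The centred value is bounded by the ceiling in OLs.

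Log2 half-life changes turned sign in 18 of 36 members after centring, in 12 after rescaling to the mean curve and in 6 without 6 h. Of the standard list and the called or extreme members, those that turned were, after centring (Rab10 -0.73, Rab11b -0.77, Rab5a -0.605, Rab8a -0.62), after rescaling (Rab10 -0.22, Rab11b -0.0387, Rab5a -0.25, Rab8a -0.21) and without 6 h (Rab11b -0.0707, Rab5a -0.40). Scaling to the 0 h medians turned the slope differences of 16 of 37 members, among those called or on the standard list Rab10 (-0.12), Rab11a (-0.17), Rab11b (-0.15), Rab2a (-0.10), Rab5a (-0.12), Rab6a (-0.0143), Rab7 (-0.18) and Rab8a (-0.17), and leaving out 6 h turned those of 5, among them Rab31 (0.00507). When each replicate was left out in turn, the half-life change ran from -0.0663 to 0.32 for Rab11b, from -0.36 to 0.12 for Rab30, from -0.38 to 0.14 for Rab39b and from -0.0563 to 0.67 for Rab8a. The 0 h change ran from -0.23 to 0.0254 for Rab11b, from -0.28 to 0.22 for Rab35 and from -0.0606 to 0.24 for Rab7, and the slope difference of Rab31 from -0.0678 to 0.0286.

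Same-numbered OPC and OL replicates did not deviate together (correlations over all transcripts of 0.0589 and 0.0102 at 0 h, -0.00162 and -0.105 for half-lives), so the numbers were not taken as pairs. The OLs were differentiated from 2 of the OPC replicates, but which 2 is not given in the sources used here. The replicate block gave 11 calls at 0 h and 0 for half-lives. It ended the 0 h calls of Rab10, Rab12, Rab14, Rab2b, Rab33b, Rab3d and Rab6b (adjusted p 0.0659 to 0.166) and gave Rab30 one (0.0367). The block turned the sign of Rab39b's half-life change (0.14) and, at 0 h, of the changes of Rab11b (0.0254), Rab24 and Rab28. Slopes without the replicate block gave 33 calls in OPCs, 25 in OLs and 13 for the difference. Depth is unknown without counts, so how far low members are limited by it cannot be given.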

Other observations

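The median share of labelled Rab RNA that was kept overlapped between the cell types early in the chase. Over 37 members, OPCs kept 76.2%, 98.4% and 84.4% and OLs 70.1% and 100.7% at 1 h, and at 2 h OPCs kept 65.6%, 95.9% and 89.4% against 84.7% and 70.4%. At 4 h the values were 45.1%, 35.4% and 59.35% against 72.8% and 70.1%, and at 6 h 14.8%, 9.90% and 23.45% against 46.8% and 55.8%. Over all 8177 transcripts, the medians at 4 h were 39.6%, 21.2% and 37.8% in OPCs and 59.2% and 58.6% in OLs, and at 6 h 14.8%, 11.3% and 18.1% and 33.0% and 39.4%. The difference of the means, OLs minus OPCs, was 24.9 percentage points for the members and 26.0 for all transcripts at 4 h, and 35.2 and 21.5 at 6 h. At 1 h and 2 h it was -0.916 and -6.08 for the members and 1.03 and -0.133 for all transcripts. Between the members, the third-position GC share of the coding sequence ran from 31.6% in Rab5a to 81.4% in Rab43, with a median of 64.0% against 60.6% in 10090 transcripts. Rab13 was at 394% of its 0 h level at 6 h in OL replicate 2 and at 60.8% in OL replicate 1, on 0 h levels of 1.65 and 4.51 FPKM.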
